A study of Homo sapiens with 12 samples.

Results

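SFPQ, NONO and PSPC1, the RNA-binding proteins RBM14, MATR3 and HNRNPK, and the long noncoding RNAs NEAT1 and MALAT1 were followed in cancer cells that had been evolved under hydroxychloroquine (HCQ). These 8 genes were taken by symbol from a count table of 28278 genes, and the set was selected on a fall of SFPQ in the line CCL218. Values of the CCL218 contrast are therefore a description: whether a gene passed the threshold there (called) is stated without a p, and nothing is supported with it. The OVCAR3 contrast was tested. All 8 passed the filter on low counts in both lines.

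Cells of the ovarian cancer line OVCAR3 and of CCL218, which the study describes as colorectal and derived from HT29, were grown on 96-well plates. HCQ-evolved cells had gone through 15 pulse-chases of 48 h in HCQ and then 7 days without drug, and control cells were passaged without the drug. The wells of each plate were pooled by plate position into pools labelled L, M and R, so that each of 4 groups had 3 pools from 1 plate. Library preparation selected poly(A) RNA, and 31147822 to 59965861 counts were assigned per pool. The labels give passage 19 for controls and passage 15 for HCQ-evolved pools, so passage and HCQ cannot be told apart, and p-values measure only the spread between pools of a plate.

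Paraspeckles are nuclear bodies built on the long transcript of NEAT1. SFPQ, NONO and PSPC1 belong to the DBHS family (Drosophila behaviour, human splicing), form dimers with each other and coat NEAT1, and SFPQ and NONO are needed for the bodies to form. RBM14 and HNRNPK are also paraspeckle proteins, MATR3 is a nuclear matrix protein that binds SFPQ, and MALAT1 is the abundant RNA of the neighbouring nuclear speckles. Paraspeckles hold back edited RNAs and nuclear proteins, and their number changes under stress.

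NEAT1 lies on chromosome 11 (65422774 to 65445540, plus strand, GENCODE 44 on hg38) and has spliced or short transcripts of up to 3524 bases and a single-exon transcript of 22743 bases. MALAT1 lies downstream on the same strand (65497640 to 65508073). Ends of 120 bases are shown because poly(A) selection meets them differently. The short NEAT1 transcript is polyadenylated, while the long NEAT1 transcript and MALAT1 are cut by RNase P before a tRNA-like RNA and end in a triple helix of U-rich stretches and an A-rich tail written in the genome. In the first sequence capitals mark TGTA, the core of the site of CPSF5 (NUDT21), and the poly(A) signal AATAAA. In the others they mark a U-rich stretch (TTTTGCTTT) and the matching A-rich end (AAAGCAAAA).
Latest annotated end of spliced NEAT1 transcripts, chr11:65426394-65426513, plus strand, hg38: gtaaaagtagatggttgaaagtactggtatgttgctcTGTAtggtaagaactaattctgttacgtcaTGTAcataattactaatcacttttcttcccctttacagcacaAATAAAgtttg
End of the long NEAT1 transcript, chr11:65445421-65445540, plus strand, hg38: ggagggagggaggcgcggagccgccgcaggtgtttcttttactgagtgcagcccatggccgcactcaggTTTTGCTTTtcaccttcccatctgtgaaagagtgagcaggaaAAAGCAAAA
MALAT1 before its tRNA-like RNA, chr11:65505997-65506116, plus strand, hg38: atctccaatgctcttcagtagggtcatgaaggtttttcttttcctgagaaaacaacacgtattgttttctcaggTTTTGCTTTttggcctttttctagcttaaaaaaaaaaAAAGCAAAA

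Of the 8 spliced NEAT1 transcripts annotated, 2 end at the last base of the first sequence and the others end before it. On the sense strand of the last 120 bases of 57083 annotated transcripts, AATAAA was found in 37.4% and TGTA in 44.1%, whereas TTTTGCTTT was found in 0.284% and AAAGCAAAA in 0.466%. These matches are descriptions of the letters. Counts were made per gene, so short and long NEAT1 cannot be told apart here, and the NEAT1 and MALAT1 levels are those of RNA kept by poly(A) selection.

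Levels are given as CPM, a gene's share of the counts of its pool, scaled by the trimmed mean of M values (TMM). The control pools L of both lines stood apart in the GC content of their counts. The control pool L of CCL218 was most like the control pool L of OVCAR3 (r = 0.983 across 11944 genes, which are not independent) and reached 0.949 to 0.960 with its own group. The control pool L of OVCAR3 was most like control pool R of its own group (0.983). In both control pools L counts were tilted toward GC-rich genes. Spearman correlations between GC content and deviation were 0.405 in OVCAR3 and 0.382 in CCL218 for these pools, against -0.318 to 0.0803 in the other pools. The log2 fold changes and ratios that moved most without them are given both ways. OVCAR3 control pool M and HCQ-evolved pool R were also each most like a CCL218 pool. Their counts were tilted toward long transcripts, with Spearman correlations of 0.496 and 0.535 between length and deviation. Tilts with length were not confined to them, and the correlation ran from -0.456 to 0.535 over all pools. In CCL218 it was -0.456 in control pool L, 0.446 in control pool M and 0.436 in HCQ-evolved pool R.

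Of 9 ovarian serous and Mullerian markers, SOX17 had no count in any pool, EMX2 and ESR1 had at most 2 counts, and WT1 reached 2.35 CPM. In the pools labelled OVCAR3, PAX8 was at 7.23 to 14.9 CPM, FOLR1 at 2.01 to 6.08 CPM, and MSLN at 2.21 to 18.3 CPM. MUC16 averaged 22.4 ± 8.83 CPM in OVCAR3 controls and 8.65 ± 5.04 CPM in CCL218 controls, and WFDC2 averaged 23.2 ± 11 and 7.69 ± 4.61 CPM, while MSLN ran the other way (14.2 ± 3.81 and 63.6 ± 27.1 CPM). The intestinal genes LGALS4 (133 to 1369 CPM) and VIL1 (78.5 to 290.1 CPM) were present under both line labels, and KRT20 had at most 4 counts. "OVCAR3" and "CCL218" are used as labels of libraries. Summed fibroblast markers were at 0.636 to 3.34 CPM, with COL1A2, COL3A1, DCN, LUM and PDGFRB each at 0.201 CPM or less. PTPRC and CD3E, which define leukocytes and T cells, were at 0.18 CPM or less, while CD14 was at 4.53 to 23.6 CPM and CD68 at 11.2 to 51.5 CPM.

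SFPQ (chromosome 1, 35176378 to 35193446, minus strand) is a splicing and transcription factor. In OVCAR3 it was at 509, 433 and 456 CPM in the control pools L, M and R. In the HCQ-evolved OVCAR3 pools it was at 345, 314 and 352 CPM. Every HCQ-evolved pool was below every control pool, and the means were 466 ± 38.7 and 337 ± 20.4 CPM (SD, n = 3 each). The log2 fold change was -0.45 (SE 0.17), a level 26.7% lower, and did not pass after adjustment over all genes (adjusted p = 0.228, edgeR quasi-likelihood test). It was between -0.5 and -0.39 under every alternative setting, with adjusted p from 0.0515 to 0.618.

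In CCL218, SFPQ was at 565, 471 and 526 CPM in control pools and at 343, 291 and 352 CPM in HCQ-evolved pools L, M and R. The pools again did not overlap, and the means were 521 ± 47 and 329 ± 32.8 CPM. The log2 fold change that led to the choice of this set was -0.67 (SE 0.14), a level 37% lower. It kept its call in 1 of 6 fits that each left out a pool, the one without control pool L, and was between -0.73 and -0.57 in the 6. SFPQ was thus at about the same level in the HCQ-evolved pools of both labels, 337 and 329 CPM. The change in CCL218 minus that in OVCAR3 was -0.195 (SE 0.19) on the log2 scale, and the difference between lines was not tested because the CCL218 contrast chose the genes.

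PSPC1 (chromosome 13, 19674752 to 19783019, minus strand) is the DBHS member that marks paraspeckles. In OVCAR3 it was at 158, 118 and 143 CPM in control pools and at 156, 148 and 139.7 CPM in HCQ-evolved pools. These ranges overlapped, and the log2 fold change was 0.10 (SE 0.17, adjusted p = 0.814, edgeR). It was -0.0009 without control pool M. In CCL218 it was at 152, 117 and 124 CPM in control pools and at 86.4, 79.9 and 80.4 CPM in HCQ-evolved pools. All HCQ-evolved CCL218 pools were below all control pools, at a log2 fold change of -0.68 (SE 0.14). This call was kept in 2 of 6 fits without a pool (control L or control M). The change in CCL218 minus that in OVCAR3 was -0.757 (SE 0.205), and it was not tested for the same reason.

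NONO (X chromosome, 71254814 to 71301522, plus strand) is the common partner of both. It was at 589, 814 and 761 CPM in OVCAR3 control pools and at 648, 618 and 693 CPM in HCQ-evolved pools. In CCL218 it was at 606, 837 and 849 CPM in control pools and at 803, 798 and 775 CPM in HCQ-evolved pools. Pools overlapped in both lines, and control pool L was the lowest of its line each time. The log2 fold changes were -0.13 (SE 0.2, adjusted p = 0.804, edgeR) in OVCAR3 and 0.05 (SE 0.16) in CCL218. Without control pool L they were -0.27 and -0.10, and in OVCAR3 the value was -0.029 without control pool M.

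**Figure D1:**
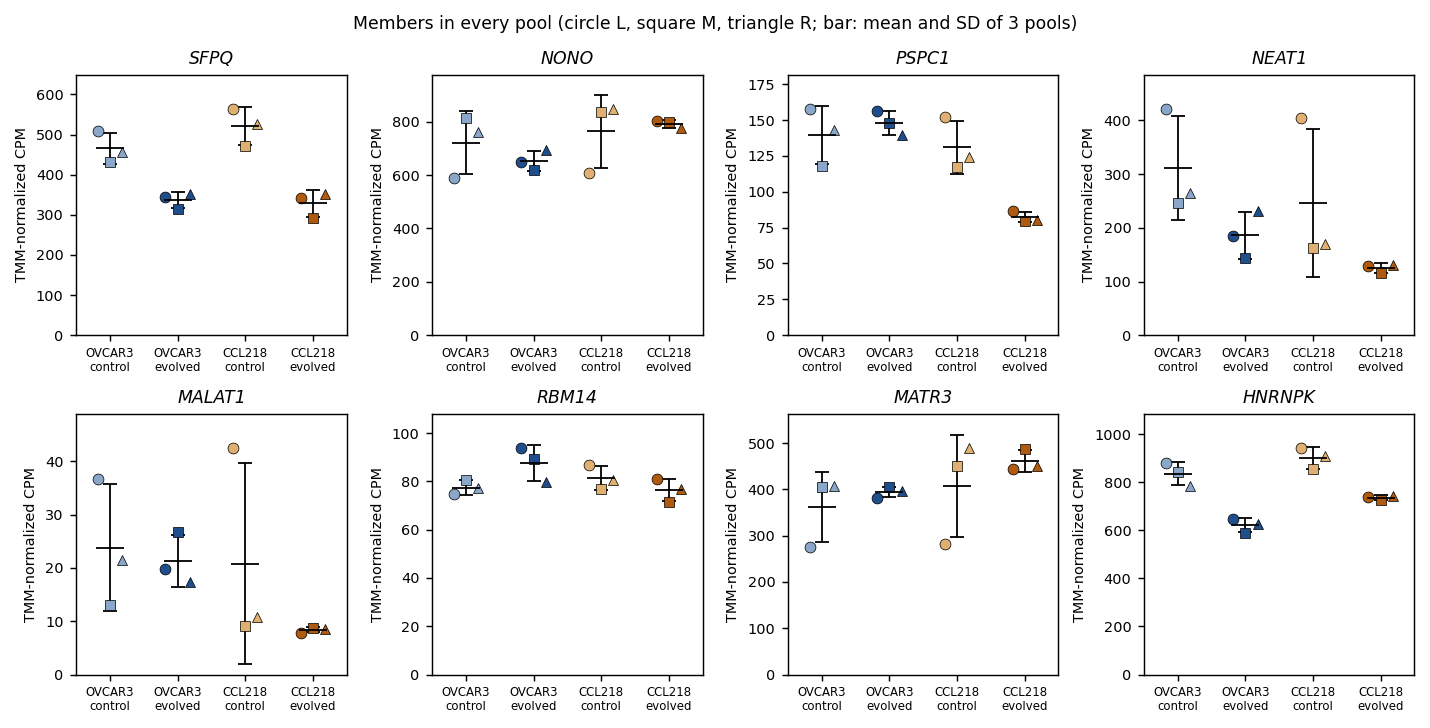
TMM-normalized CPM (linear axes from 0) of the 8 genes in the 12 pools, by group, with circles for L, squares for M and triangles for R, and bars for the mean and SD of 3 pools. HCQ-evolved pools of SFPQ, NEAT1 and HNRNPK lie below the control pools in both lines, and the control pools L are the highest for NEAT1 (422 and 405 CPM) and the lowest for NONO and MATR3.

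Ratios of counts within a pool do not depend on scaling. The share of other gene pairs whose ratios separate was not computed, so separations of ratios are descriptions. Per SFPQ count there were 0.31, 0.273 and 0.315 PSPC1 counts in OVCAR3 control pools. The HCQ-evolved OVCAR3 pools had 0.453, 0.473 and 0.397. All HCQ-evolved pools were higher, with means of 0.299 ± 0.023 and 0.441 ± 0.0395 (exact two-sided permutation test, p = 0.1, the smallest that 3 against 3 pools allow). In CCL218 the same ratio was 0.251 ± 0.0162 in control pools and 0.252 ± 0.0231 in HCQ-evolved pools, and the pools overlapped. NONO counts per SFPQ count averaged 1.57 ± 0.371 and 1.94 ± 0.0527 in OVCAR3 with overlapping pools (exact two-sided permutation test, p = 0.2). In CCL218 they were 1.07, 1.78 and 1.61 in control pools and 2.34, 2.74 and 2.2 in HCQ-evolved pools, which did not overlap. This ratio carries the fall of SFPQ that chose the set. PSPC1 counts per NONO count were 0.179 ± 0.0619 and 0.104 ± 0.0037 in CCL218, also without overlap, and overlapped in OVCAR3 (0.2 ± 0.062 and 0.228 ± 0.0226). HNRNPK counts per SFPQ count were 1.73 ± 0.0708 and 2.25 ± 0.206 in CCL218. NEAT1 counts per NONO count were 0.354 ± 0.272 and 0.158 ± 0.0126 there. Both were separated in CCL218 and overlapped in OVCAR3. Without control pool L the separations of these ratios were unchanged, except that PSPC1 per NONO in OVCAR3 then averaged 0.167 in controls, below all HCQ-evolved pools. Among the DBHS genes, PSPC1 was thus lower together with SFPQ in CCL218 and overlapped between conditions in OVCAR3, while NONO overlapped between conditions in both lines.

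**Figure D2:**
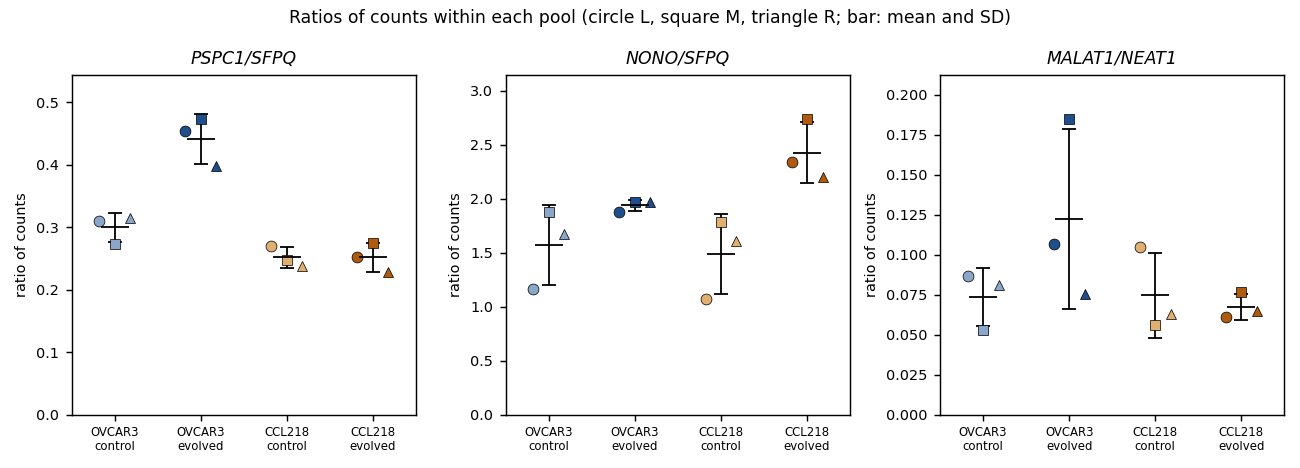
Ratios of raw counts within each pool (linear axes from 0) for PSPC1 to SFPQ, NONO to SFPQ and MALAT1 to NEAT1, by group, with symbols for the pools L, M and R and bars for the mean and SD of 3 pools. PSPC1 per SFPQ is separated only in OVCAR3 and NONO per SFPQ only in CCL218 among these panels; MALAT1 per NEAT1 overlaps in both lines.

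NEAT1 was at 422, 246 and 264 CPM in OVCAR3 control pools L, M and R. The HCQ-evolved OVCAR3 pools were at 184, 144 and 231 CPM. The pools did not overlap, with means of 311 ± 96.8 and 186 ± 43.2 CPM, and the log2 fold change of -0.71 (SE 0.27), a level 38.9% lower, did not pass after adjustment (adjusted p = 0.249, edgeR). Without control pool L, the highest of the 6, it was -0.45, and over all alternatives adjusted p ranged from 0.0875 to 0.591.

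In CCL218, NEAT1 was at 405, 163 and 169 CPM in control pools and at 129, 115 and 131 CPM in HCQ-evolved pools. Control pool L stood far above the rest, and the other control pools were also above all HCQ-evolved pools. The log2 fold change was -0.98 (SE 0.35) and was not called. Without control pool L it was smaller, at -0.42, with a smaller SE (0.091), and was called. With plate position as a block it was -0.84 (SE 0.23) and also called, which brought the called genes of the set from 2 to 3. With the trend on length and GC content removed as well, it was -0.70 and not called, and 2 genes were called. That fit entered NEAT1 at the length of its long transcript only. NEAT1 counts per SFPQ count overlapped in both lines, at 0.659 ± 0.148 and 0.55 ± 0.0985 in OVCAR3 (exact two-sided permutation test, p = 0.4) and at 0.461 ± 0.221 and 0.381 ± 0.0119 in CCL218. The higher CCL218 control mean rests on pool L (0.717): the other control pools were at 0.346 and 0.321, below the HCQ-evolved pools (0.378, 0.394 and 0.37), so that the direction turned without it.

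MALAT1 was at 36.6, 13.1 and 21.5 CPM in OVCAR3 control pools and at 19.7, 26.7 and 17.4 CPM in HCQ-evolved pools. These overlapped, at a log2 fold change of -0.13 (SE 0.36, adjusted p = 0.895, edgeR), which became 0.29 without control pool L and 0.16 relative to the summed counts of the 6 protein-coding genes. In CCL218 it was at 42.5, 9.12 and 10.7 CPM in control pools and at 7.86, 8.8 and 8.48 CPM in HCQ-evolved pools. The log2 fold change of -1.31 (SE 0.57) was -0.25 without control pool L. TALAM1, the antisense gene over 77.8% of the MALAT1 exon bases, had 0 to 6 counts per pool. Whether counting used strand is not given in the sources used here, so reads of this overlap could be left out as ambiguous, and the MALAT1 level is uncertain. MALAT1 counts per NEAT1 count averaged 0.0737 ± 0.0181 and 0.122 ± 0.0563 in OVCAR3 and 0.0747 ± 0.0265 and 0.0675 ± 0.00827 in CCL218, and overlapped in both lines. Without control pool L the control mean in CCL218 was 0.0595, below that of the HCQ-evolved pools.

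HNRNPK (chromosome 9, 83968083 to 83980631, minus strand) binds C-rich RNA and favours the long NEAT1 transcript by interfering with 3' processing of the short one. It was at 882, 841 and 784 CPM in OVCAR3 control pools and at 649, 589 and 626 CPM in HCQ-evolved pools. No HCQ-evolved pool reached the control range. The log2 fold change was -0.41 (SE 0.17), a level 24.7% lower, and did not pass after adjustment (adjusted p = 0.295, edgeR, and 0.0503 to 0.704 over the alternatives). In CCL218 it was at 943, 853 and 908 CPM in control pools and at 739.6, 724 and 742 CPM in HCQ-evolved pools, again apart, at a log2 fold change of -0.30 (SE 0.12). This was not called in the main fit, and it was called with DESeq2 (-0.30), with the trend on length and GC content removed (-0.36) and without control pool L (-0.27). The annotation holds 5 pseudogene symbols of HNRNPK, 3 of MATR3, 2 of PSPC1, 1 of SFPQ and 1 of NONO, which could share reads with these genes.

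MATR3 (chromosome 5, 139293674 to 139331677, plus strand) had 275, 404 and 407 CPM in OVCAR3 control pools and 382, 404 and 397 CPM in HCQ-evolved pools. In CCL218 it was at 281, 451 and 489.6 CPM in control pools and at 444, 488 and 451 CPM in HCQ-evolved pools. As for NONO, control pool L was the lowest in each line. The log2 fold changes were 0.14 (SE 0.21, adjusted p = 0.797, edgeR) and 0.18 (SE 0.21), and without control pool L they were -0.044 and -0.037. GENCODE holds 2 genes of this symbol that overlap over 42.6% of the exon bases, so this level is uncertain.

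RBM14 (chromosome 11, 66616626 to 66629934, plus strand), is a coactivator that is needed for paraspeckles to form. Its coefficient of variation within a group was 3.86% to 8.33%, against 1.29% to 5.88% for HNRNPK and 5.69% to 90.8% for MALAT1. It was at 74.6, 80.6 and 77.1 CPM in OVCAR3 control pools and at 93.9, 89.4 and 79.6 CPM in HCQ-evolved pools, which overlapped (log2 fold change 0.19, SE 0.16, adjusted p = 0.616, edgeR). In CCL218 it was at 81.4 ± 5.15 CPM in control pools and 76.4 ± 4.69 CPM in HCQ-evolved pools, also overlapping, at a log2 fold change of -0.09 (SE 0.12). The readthrough gene RBM14-RBM4 had 0 to 3 counts per pool.

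Across the set, 0 of 8 genes were called in OVCAR3 (edgeR, adjusted p under 0.05), where 1.86% of 12204 genes were called, 1.21% lower and 0.647% higher. DESeq2 and limma voom also called 0. At an unadjusted p under 0.05, 3 of the 8 (SFPQ, NEAT1 and HNRNPK) were lower, beside 7.87% of all genes. For the same 3 genes all HCQ-evolved OVCAR3 pools lay below all control pools, as they did for 12.7% of all genes. In CCL218, 2 of 8 were called, both lower, where 6.46% of 12241 genes were called, 2.64% lower and 3.82% higher. Nothing is read from this count, since the contrast chose the set. All HCQ-evolved CCL218 pools were lower for 5 of the 8 (SFPQ, PSPC1, NEAT1, MALAT1 and HNRNPK), beside 17.3% of all genes. None of the 8 had all HCQ-evolved pools higher, as 13% of genes had in OVCAR3 and 18.6% in CCL218. In bulk RNA, less RNA per cell and fewer cells with the RNA cannot be told apart.

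**Figure D3:**
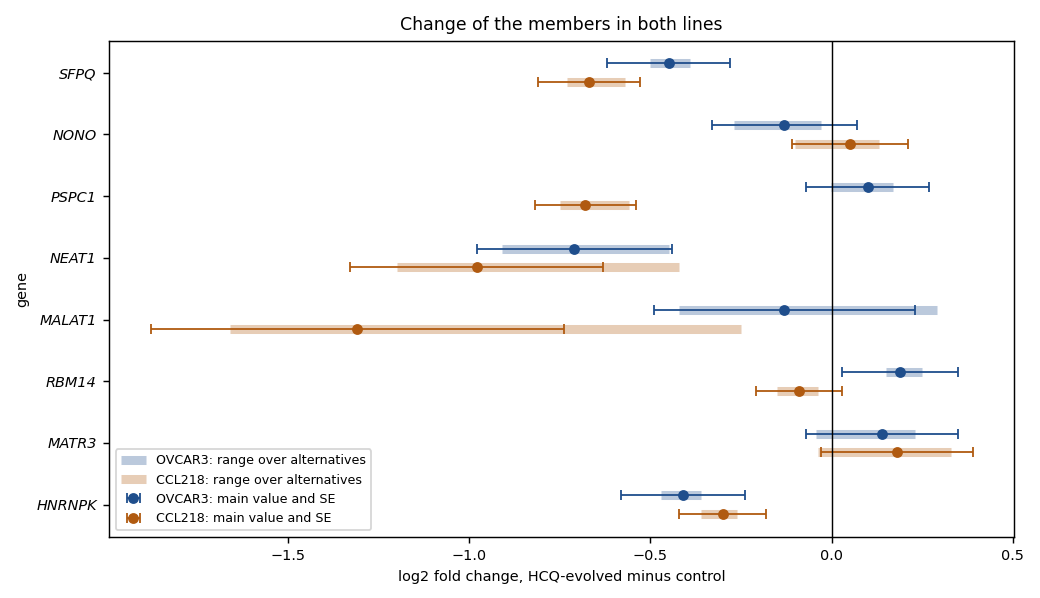
Log2 fold change (HCQ-evolved minus control) of each gene in OVCAR3 (blue) and CCL218 (orange), with points and whiskers for the main value and its SE and bands for the range over all alternatives. SFPQ, NEAT1 and HNRNPK are below 0 in both lines under every alternative, and the wide bands of NEAT1 and MALAT1 end at the value without control pool L.

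The order of levels was compared per kilobase of annotated exons (CPM per kb). HNRNPK was the highest in every group (147 ± 8.62, 109 ± 5.34, 158 ± 7.94 and 129 ± 1.67 CPM per kb in control and HCQ-evolved OVCAR3 and control and HCQ-evolved CCL218). NONO and SFPQ followed, at 64.3 ± 10.5 and 60.3 ± 5.01 CPM per kb in OVCAR3 controls and 68.1 ± 12.2 and 67.4 ± 6.09 in CCL218 controls, less apart than their spread. In HCQ-evolved CCL218 pools NONO was at 70.6 ± 1.32 and SFPQ at 42.6 ± 4.25 CPM per kb, further apart than the spread. MATR3 and PSPC1 came next and differed by less than their spread in OVCAR3 controls (30 ± 6.25 and 29 ± 4.14). In HCQ-evolved OVCAR3 pools MATR3 was at 32.7 ± 0.94 and PSPC1 at 30.7 ± 1.71 CPM per kb. In HCQ-evolved CCL218 PSPC1 was at 17.1 ± 0.75 beside 38.2 ± 1.96 CPM per kb for MATR3. NEAT1 over its full length and RBM14 were within their spread of each other in controls (13.6 ± 4.25 and 11.9 ± 0.462 CPM per kb in OVCAR3), and MALAT1 was the lowest in every group, at 0.803 ± 0.0457 to 2.27 ± 1.14 CPM per kb. If all NEAT1 counts came from its longest spliced transcript, NEAT1 would be at 88.1 ± 27.5 CPM per kb in OVCAR3 controls, so its place in this order depends on the isoform. Per kilobase of the longest transcript, 5 of the 8 levels were over 1.5 times higher, and PSPC1 was then above MATR3 in OVCAR3 (60.8 ± 3.38 and 54 ± 1.55 CPM per kb in HCQ-evolved pools).

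Within groups the genes moved in a pattern that followed the pools. In control pool L of CCL218, NEAT1 was 0.85 and MALAT1 1.33 above the group mean on the log2(CPM + 1) scale, while NONO was -0.32 and MATR3 -0.49 from it. In control pool L of OVCAR3 the deviations were 0.48 for NEAT1, 0.72 for MALAT1, -0.28 for NONO and -0.37 for MATR3. With the trend on length and GC content removed, the log2 fold change of MATR3 went from 0.14 to -0.0041 in OVCAR3. In CCL218 that of MATR3 went from 0.18 to 0.027 and that of NONO from 0.05 to -0.021. NEAT1, entered at the length of its long transcript, went from -0.71 to -0.67 in OVCAR3 and from -0.98 to -0.88 in CCL218. Entered at its longest spliced transcript, NEAT1 went to -0.77 and -1.07, so the direction of this move depends on the isoform. After group means were removed, Pearson's r over the 12 pools was 0.80 between NEAT1 and MALAT1, 0.94 between NONO and MATR3 and -0.96 between NONO and MALAT1. SFPQ and HNRNPK had r = 0.72 on that scale and 0.87 before the group means were removed. In each line control pool L had the largest deviations of NEAT1, MALAT1, NONO and MATR3, and no r without these pools is given here. The pools share plates, positions and library trends, and these values are descriptions.

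**Figure D4:**
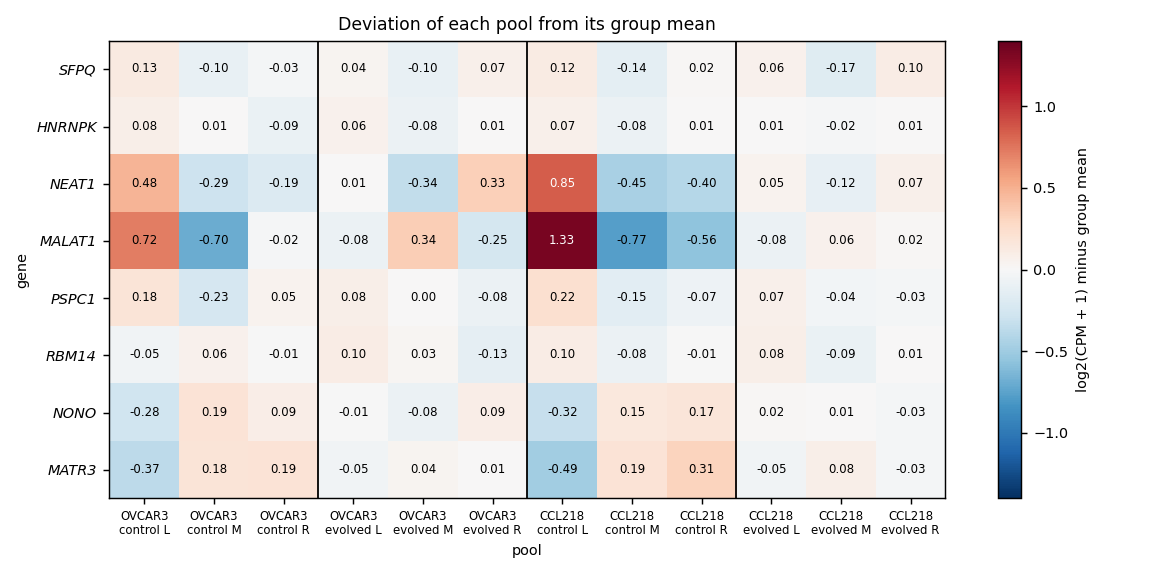
Deviation of each pool from its group mean on the log2(CPM + 1) scale for the 8 genes (rows) and 12 pools (columns), in red above and blue below the mean. The control pools L of both lines stand out, with MALAT1 at 0.72 and 1.33 and MATR3 at -0.37 and -0.49.

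Among 11944 genes tested in both lines, those whose log2(CPM + 1) was most like SFPQ over the 12 pools were FAM86JP (r = 0.978), MLLT1 (0.969), CASTOR2 (0.968), SRSF1 (0.959) and USB1 (0.958). After group means were removed the values were 0.940, 0.786, 0.783, 0.723 and 0.821. CASTOR2, a paralog of the arginine sensor CASTOR1, had log2 fold changes of -0.97 in OVCAR3 (SE 0.2, adjusted p = 0.0588, edgeR) and -1.18 in CCL218 (SE 0.19, called). FAM86JP belongs to a family of near-identical copies and its counts are uncertain. Most like NEAT1 were CHRAC1 (r = 0.984), CLCF1 (0.980), LRCH4 (0.974), DDN-AS1 (0.971) and SCAMP4 (0.966), none of them called in either line, with r of 0.922 to 0.976 after group means were removed. NEAT1 deviated most in the control pools L (0.48 in OVCAR3 and 0.85 in CCL218), whose counts were tilted toward GC-rich genes. No r without these pools is given, so a shared tilt of libraries and likeness to NEAT1 cannot be told apart here.

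Further proteins found in paraspeckles were described from a list of 36, of which 32 were tested. In OVCAR3, 1 was called lower and 0 higher, beside 1.21% and 0.647% of all genes. The median log2 fold change was -0.19 beside 0.016 for all genes. The called gene was MEX3A, an RNA-binding protein with a RING domain, at 76.5 ± 15.7 CPM in control and 30.2 ± 3.98 CPM in HCQ-evolved pools (log2 fold change -1.32, SE 0.23, adjusted p = 0.0364, edgeR). It kept its call in 1 of 6 fits without a pool, the one without HCQ-evolved pool R, at -1.48 to -1.18 over the 6. ZC3H6 had a log2 fold change of 1.26 (SE 0.3, adjusted p = 0.0863, edgeR). In CCL218, 2 were called lower and 1 higher, beside 2.64% and 3.82% of all genes. The median was -0.23 beside -0.017 for all genes. MEX3A was at 118 ± 14.2 and 53.4 ± 3.38 CPM (log2 fold change -1.15, SE 0.14). ZC3H6 was at 6.71 ± 1.39 and 15.9 ± 2.87 CPM (1.24, SE 0.21). Without 1 pool, calls in CCL218 were kept in 4 of 6 fits for MEX3A and 3 of 6 for ZC3H6.

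Which NEAT1 transcript is made depends on 3' processing. Over all genes tested, 1.86% were called in OVCAR3 and 6.46% in CCL218 (2.64% lower), at median log2 fold changes of 0.016 and -0.017. Of 18 cleavage and polyadenylation factors, all were tested, with 0 called in OVCAR3 (median -0.03) and 1 called lower in CCL218 (median -0.20). CPSF4, which reads the poly(A) signal, was at 56 ± 2.25 CPM in control and 37.2 ± 2.92 CPM in HCQ-evolved CCL218 pools (log2 fold change -0.59, SE 0.12), and the call was kept in 1 of 6 fits without a pool (without control L) and in 7 of 10 other settings. NUDT21, which binds TGTA, had log2 fold changes of 0.38 (SE 0.23, adjusted p = 0.47, edgeR) in OVCAR3 and 0.28 (SE 0.23) in CCL218. Of 12 subunits of RNase P and of RNase Z, which cut the tRNA-like ends, 11 were tested and 0 were called in either line, with medians of -0.08 and -0.21. The list of 10 transcription factors that act on NEAT1, among them HSF1 and HIF1A, had 0 called in either line, with medians of 0.13 and 0.05.

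Of 20 nuclear speckle components, 0 were called in either line, with medians of 0.00 in OVCAR3 and -0.09 in CCL218. Of 22 tested hnRNP genes outside the set, 0 were called, with medians of -0.01 and -0.22. Over all genes tested, 1.86% were called in OVCAR3 and 6.46% in CCL218, at medians of 0.016 and -0.017. From the hnRNP list 6 genes, and from the cleavage factors 3, are also on the list of paraspeckle proteins. Of 4 transcripts reported to respond to paraspeckles, CXCL8 and NICN1 were tested. CXCL8, an inflammatory chemokine whose transcription SFPQ restrains, was at 8.12 and 8.9 CPM in control and HCQ-evolved OVCAR3 (log2 fold change 0.14, SE 0.28, adjusted p = 0.855, edgeR). In CCL218 it was at 3.91 ± 0.457 and 2.02 ± 0.178 CPM (log2 fold change -0.95, SE 0.19) and was called lower, in 1 of 6 fits without a pool (without control L). NICN1 had log2 fold changes of 0.13 (SE 0.27, adjusted p = 0.864, edgeR) and -0.20 (SE 0.17).

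**Figure D5:**
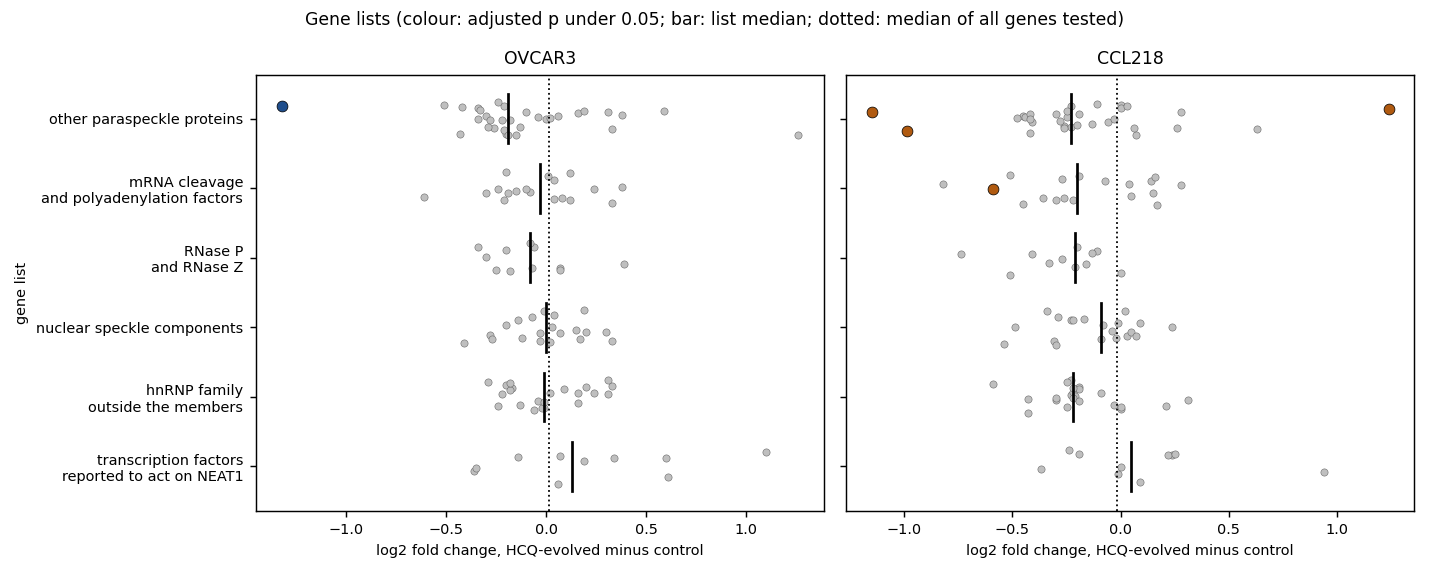
Log2 fold changes (HCQ-evolved minus control) of the tested genes of 6 lists in OVCAR3 (left) and CCL218 (right), with colour for adjusted p under 0.05, bars for list medians and a dotted line for the median of all genes tested. MEX3A at -1.32 is the only coloured gene in OVCAR3, and MEX3A, ZC3H6 and CPSF4 are among those coloured in CCL218.

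Intestinal markers moved in CCL218 beside these values. Of 9 colorectal epithelial markers, 7 were tested, and 4 were called higher in CCL218, beside 3.82% of all genes. The 4 had log2 fold changes of 1.54 for CDX2, 3.77 for CDH17, 2.86 for GPA33 and 2.10 for CEACAM5. CDX2 was not called in the joint fit of both lines. LGALS4 was not called in CCL218 (-0.42), though its HCQ-evolved pools all lay below the control pools. In OVCAR3, 0 were called, beside 1.86% of all genes. VIL1 was at -1.12 (SE 0.25, adjusted p = 0.0708, edgeR) and LGALS4 at -1.01 (SE 0.44, adjusted p = 0.318, edgeR). Each had all HCQ-evolved OVCAR3 pools below all control pools. The difference between lines was not tested. The summed markers were at 1807 to 2538 CPM in control and 2029.8 to 2202 CPM in HCQ-evolved CCL218 pools, so the sums overlapped. Of the immune markers, CD68, also made by epithelial lines, was called higher in CCL218 (1.98), CD14 was not called (0.30), and CD3E and PTPRC were near 0 CPM. In OVCAR3 CD68 was at 1.26 (SE 0.24, adjusted p = 0.051, edgeR) and CD14 at 0.17 (SE 0.38, adjusted p = 0.874, edgeR). For CD68 all HCQ-evolved OVCAR3 pools lay above all control pools, as they did for 13% of all genes. The part of such shifts in the changes of SFPQ, PSPC1 and NEAT1 was not tested.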

How the data were processed

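RNA was measured in 12 libraries, one per pool. The authors aligned poly(A)-selected reads to hg38 with STAR, removed duplicates with RmDup and deposited raw counts per gene symbol from featureCounts. Strand and read-pair settings are not given in the sources used here. Of the entries from 1 to 4, 78.9% were even, so read mates may have been counted singly. 0 columns had no sample. Counting error is small at these depths, and the number of pools limits precision.

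Each line was fitted alone in R 4.3.3 with edgeR 4.0.16 (TMM, at least 1 CPM in at least 3 libraries, robust quasi-likelihood test, Benjamini-Hochberg adjustment over all genes, threshold 0.05). Code was tested on simulated data. Alternatives were other scalings and filters, DESeq2 1.42.0, limma 3.58.1 voom, a joint fit, a block for plate position, a spline trend on length and GC content (GENCODE 44, 91.1% of symbols) and leaving out each pool. In CCL218, deviations of control and HCQ-evolved pools of the same letter correlated at 0.541, 0.27 and 0.227 for L, M and R. Control M correlated more with HCQ-evolved R (0.471), so M and R were not clearly paired by letter. Deviations within a group are not independent of each other.

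The genes and lists were chosen with earlier results of these data known. The text names the 8 genes, called genes of each list (at most 4 per line) and the 5 genes most like SFPQ and NEAT1. ZC3H6 in OVCAR3, NUDT21, CASTOR2, NICN1, VIL1, LGALS4, CD14, CD68 in OVCAR3 and the levels of other markers were given in addition, after their values were seen. Values of some genes on these lists are not reported here.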

Additional observations from a re-analysis of the deposited data

How the results depend on the processing

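In OVCAR3, 126 of 132 alternative values of the 8 genes kept their sign and, where a p was computed, their side of the threshold, and 6 changed sign. MATR3 was at -0.0041 with the trend on length and GC content removed, -0.0069 with the replicate block as well and -0.044 without control pool L. PSPC1 was at -0.0009 without control pool M, and MALAT1 at 0.29 without control pool L and 0.16 relative to the protein-coding genes. In both lines, values of NEAT1 and MALAT1 relative to the protein-coding genes had no p. They counted as kept if the sign held and the shift was below the larger group SD. Without single pools, log2 fold changes in OVCAR3 ranged from -0.27 to -0.029 for NONO, -0.0009 to 0.17 for PSPC1, -0.42 to 0.29 for MALAT1 and -0.044 to 0.23 for MATR3. In CCL218, 113 of 132 kept both, 9 lost and 6 gained a call, and 4 changed sign: NONO to -0.021 with the trend removed, -0.018 with the block as well and -0.10 without control pool L, and MATR3 to -0.037 without control pool L. Without single pools these ranged from -0.10 to 0.13 for NONO and -0.037 to 0.33 for MATR3. NEAT1 in CCL218 was called by DESeq2 (-0.98) and with the block (-0.84) but not with block and trend (-0.70), and without single pools it ranged from -1.2 to -0.42. HNRNPK in CCL218 gained its call in 3 settings (DESeq2, trend removed and without control pool L). SFPQ ranged from -0.73 to -0.57 without single pools. The called genes of the set ranged from 0 to 4 of 8 in CCL218 without single pools and were 4 with DESeq2.

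Counts of all called genes moved more. From 227 in OVCAR3 they went to 549 without a filter, 1105 with DESeq2, 1165 in the joint fit, 856 with the trend removed, 81 with the replicate block and 364 with block and trend, and to between 3 and 557 without single pools. From 791 in CCL218 they went to 2172 with DESeq2, 2004 with the trend removed, 1744 with the block and 2001 with block and trend, and to between 102 and 3047 without single pools. The cause was not tested. In OVCAR3 the pool letters did not pair the pools (correlations 0.422, -0.692 and -0.5), and in CCL218 they clearly paired only L. The block changed no other call of the 8 genes. With it MEX3A lost its call in OVCAR3 (adjusted p = 0.118, edgeR). Block with trend, NEAT1 entered at its spliced length, and the ratios without control pool L were chosen after seeing the data. A fit without one pool assumes that the group with 2 pools varies like the other.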
